A study of Mus musculus with 6 samples.

Results

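*Caprin1* and 9 further genes for proteins of the stress granule were examined in cochlear RNA-seq of *Pou4f3(Δ/+)* and wildtype mice: *Caprin2*, *G3bp1*, *G3bp2*, *Usp10*, *Tia1*, *Tial1*, *Fmr1*, *Fxr1* and *Atxn2*. The members were taken by gene symbol, 10 of the 51802 symbols listed, and every transcript under those symbols was kept, 134 of 128603. All samples came from the cochlea of mice on the C57/BL6J background at 2 months of age. The wildtype animals carried no mutant allele (replicates 3, 4 and 5), and the *Pou4f3(Δ/+)* animals were heterozygous for a knock-in allele that encodes a truncated form of Pou4f3, a transcription factor of the inner ear hair cell (replicates 1, 2 and 3). The latter are called mutant below. Whether a sample was 1 cochlea or a pool is not given in the sources used here, so the p-values below measure the spread between these samples. The RNA was that of the whole cochlea, in which hair cells are a small minority, and fewer cells of a type cannot be told apart from less RNA per cell.

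Stress granules are clusters of RNA and protein that form in the cytoplasm when the start of translation is blocked, and they dissolve when translation resumes. G3BP1 and G3BP2 are the RNA-binding proteins that nucleate them, CAPRIN1 binds G3BP proteins and promotes assembly, and USP10 competes for the same G3BP surface and opposes it. TIA1 and TIAL1 (also called TIAR) are RNA-binding proteins that act both on splicing in the nucleus and on silencing of mRNAs in the granule. FMR1 and FXR1 are RNA-binding regulators of translation that bind CAPRIN1, and ATXN2 binds mRNA and poly(A)-binding protein. *Caprin1* was included by the study among genes known from earlier work to lie downstream of Pou4f3, and the comparison of genotypes asked whether its level was altered. In the gene ontology terms of the deposited files all 10 members carried RNA binding, a term of 1229 tested genes, and 6 carried cytoplasmic stress granule (*Caprin1*, *G3bp1*, *Tia1*, *Tial1*, *Fmr1* and *Atxn2*), a term of 38 tested genes.

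In 6 of the members the abundant coding forms are parted by an alternative segment, and these segments are shown first because the transcript results refer to them. They are printed 5′ to 3′ on the coding strand from the GENCODE M21 transcripts (GRCm38), with the alternative bases in capitals and 15 flanking exonic bases on each side in lower case. In *Fmr1* the segment is a 63-base exon (chrX:68705861-68705923, + strand), in *G3bp2* a 99-base exon (chr5:92063337-92063435, - strand), in *Tia1* a 33-base exon (chr6:86419101-86419133, + strand) and in *Tial1* a 51-base extension of an exon (chr7:128448720-128448770, - strand). These 4 lengths are multiples of 3 and add 21, 33, 11 and 17 codons. In *Fxr1* a 92-base exon (chr3:34068161-34068252, + strand) and in *Atxn2* a 169-base exon (chr5:121813385-121813553, + strand) are not multiples of 3, so their use changes the reading frame of what follows.
Fmr1 exon: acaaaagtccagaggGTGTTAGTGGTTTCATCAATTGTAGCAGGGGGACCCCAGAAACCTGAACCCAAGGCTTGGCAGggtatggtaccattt
G3bp2 exon: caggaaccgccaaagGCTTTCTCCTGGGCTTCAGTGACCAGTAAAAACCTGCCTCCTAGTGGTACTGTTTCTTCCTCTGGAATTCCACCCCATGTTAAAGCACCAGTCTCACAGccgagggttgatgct
Tia1 exon: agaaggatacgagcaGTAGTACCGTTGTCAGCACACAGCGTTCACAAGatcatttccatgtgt
Tial1 extension: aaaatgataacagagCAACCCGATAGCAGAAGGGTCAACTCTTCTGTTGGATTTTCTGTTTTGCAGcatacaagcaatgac
Fxr1 exon: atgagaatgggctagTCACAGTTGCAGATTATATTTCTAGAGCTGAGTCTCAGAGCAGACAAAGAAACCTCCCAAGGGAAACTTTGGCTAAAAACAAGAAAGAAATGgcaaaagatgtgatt
Atxn2 exon: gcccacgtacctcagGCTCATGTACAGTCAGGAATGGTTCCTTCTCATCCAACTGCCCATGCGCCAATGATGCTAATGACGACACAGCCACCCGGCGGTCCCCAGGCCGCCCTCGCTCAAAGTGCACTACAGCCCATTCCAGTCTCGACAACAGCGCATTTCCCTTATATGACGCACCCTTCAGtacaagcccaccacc

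*Tia1* and *Tial1* also had abundant transcripts annotated as targets of nonsense-mediated decay, the pathway that degrades mRNAs with an early stop codon. The 2 sequences below show where the reading frame of such *Tial1* transcripts ends, because 1 of them was lower in every mutant sample. Each starts with the last 15 bases shared with the coding transcripts, runs through the bases that only the decay form reads, and ends in capitals with the in-frame stop codon. Both follow the same exon. One is the stretch up to the stop codon of a longer alternative exon (chr7:128447071-128447107, - strand), and the other is that of a shorter exon, which shares the end of the longer one (chr7:128446765-128446798, - strand).
Tial1 long exon: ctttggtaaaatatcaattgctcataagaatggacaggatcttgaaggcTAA
Tial1 short exon: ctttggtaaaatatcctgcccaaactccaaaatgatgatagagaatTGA

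Summed expected counts (estimated fragments per transcript, which need not be whole) ranged from 14295069 to 17696784 per sample. On the first principal component of log2 CPM (counts scaled to library size, on a log2 scale), which held 32.5% of the variance, mutant replicates 1 and 2 stood apart at 23.2 and 40.2, whereas mutant replicate 3 (-16.4) lay among the wildtype samples (-21.5 to -11.7). Cell type markers stood apart in the same replicates. The summed FPKM (fragments scaled to transcript length and library size) of 7 B cell markers was 115 to 142 in wildtype and 147 to 296 in mutant cochleae, with the 2 highest values in replicates 1 and 2, and that of 3 markers of the stria vascularis was 97.6 to 105 and 55.2 to 88.6, with the lowest values in the same replicates. The summed FPKM of 6 hair cell markers, most of it *Pvalb*, overlapped between genotypes (109 to 124 and 114 to 136), while their mean log2 CPM was higher without overlap (4.002 to 4.051 and 4.09 to 4.14). Among the 6, 4 had a fold change upward and 2 downward. *Strc* was higher without overlap (0.90 to 1.09 and 1.14 to 1.32 FPKM), whereas *Otof* (5.01 and 4.44 FPKM) and *Slc26a5* (1.64 and 1.61) had lower means in mutant cochleae, with overlap. In the sums of 3 other lists mutant replicates 1 and 2 lay outside the wildtype range. Mutant replicate 3 lay within it or, for the neuron markers, beyond its other end. Red blood cell markers were at 12963 and 15462 FPKM in replicates 1 and 2 (wildtype 10217 to 11644) and bone markers at 102 and 100.1 (wildtype 133 to 176). Spiral ganglion neuron markers were at 220 and 189, and at 288 in replicate 3 (wildtype 238 to 258). Of these, *Nefl* (110 and 99.9 FPKM) and *Nefm* (108 and 96.3) had lower means in mutant cochleae, and *Tubb3* a higher one (29.9 and 36.5). For *Tubb3* replicates 1 and 2 (31.7 and 29.1) lay within the wildtype range (25.5 to 32.2). Among the 3 bone markers *Col1a1* was lower without overlap (78.4 to 132 and 48.4 to 77.7 FPKM), and *Bglap* and *Sost* overlapped, with means of 17.8 and 35.9 FPKM in wildtype and 23.2 and 36.9 FPKM in mutant cochleae. No marker was listed at 0 in all samples. The part of these differences in the members' values was not tested, and each member's gene-level fold change below is also given without replicates 1 and 2, in a fit that leaves 1 mutant sample and takes the spread from the wildtype samples. *Pou4f3* itself, whose single listed transcript counts both alleles and therefore does not check the genotype, had 1.99 ± 0.278 FPKM in wildtype and 1.91 ± 0.642 FPKM in mutant cochleae (SD, n = 3 each).

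None of the 10 members passed the test between *Pou4f3(Δ/+)* and wildtype cochleae at the gene level. After the counts were summed over the transcripts of a symbol, 0 members had an adjusted p under 0.05 in edgeR's quasi-likelihood test, against 0 of 17136 genes tested (0%), and 0 had an unadjusted p under 0.05, against 7.64% of all genes. DESeq2 called 62 genes in the same counts, and 0 of them were members. The members' log2 fold changes ran from -0.05 to 0.13, with 8 above 0 and 2 below, where 49.4% of all genes were above 0. Their median was 0.08 beside -0.0027 for all genes. The 95% intervals of the members lay between 0.779-fold and 1.29-fold, and without the thinly counted *Caprin2* between 0.859-fold and 1.29-fold. The FPKM of the 2 genotypes did not overlap for 1 member, *Fxr1*, which was higher, against 6.02% of all genes higher and 6.03% lower, and 0 members were lower without overlap.

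**Figure D1:**
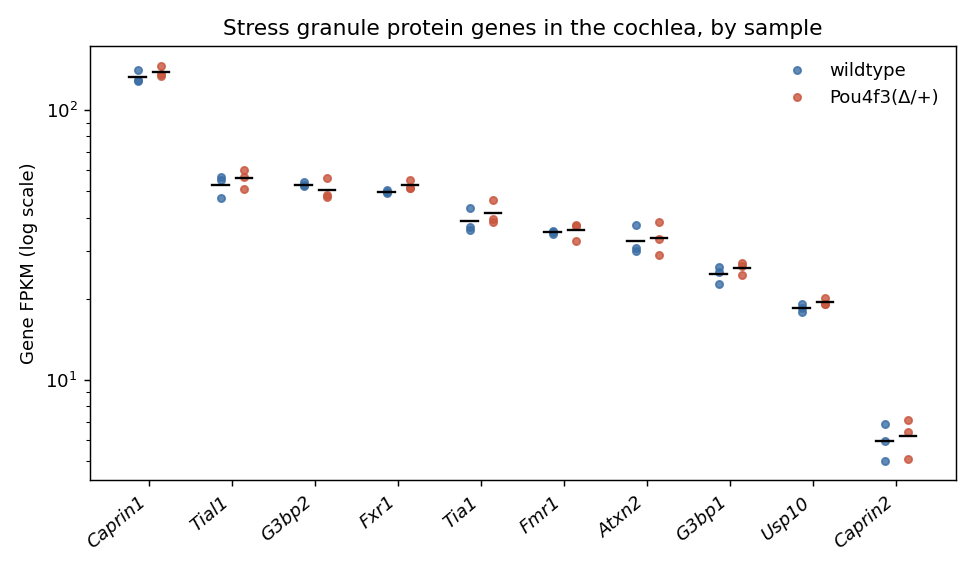
Gene-level FPKM (log axis) of the 10 members, ordered by the wildtype mean; each point is 1 sample (3 wildtype in blue, 3 *Pou4f3(Δ/+)* in red) and the black bars are the means. *Caprin1* lies above all other members, *Caprin2* below them, and the genotypes overlap for 9 of the 10 genes.

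*Caprin1*, the translational regulator that binds G3BP proteins, was the most abundant member, with overlapping levels in the 2 genotypes. It had 128.93, 141.29 and 128.44 FPKM in wildtype replicates 3, 4 and 5 and 146.31, 134.14 and 136.24 FPKM in mutant replicates 1, 2 and 3, from 7369 to 9656 counts (ENSMUSG00000027184, chr2:103762941-103797649, - strand). The highest sample was mutant replicate 1, and the groups overlapped, since wildtype replicate 4 lay above the other 2 mutant samples. The means were 132.9 ± 7.28 and 138.9 ± 6.51 FPKM (SD, n = 3 each). The log2 fold change was 0.05 (standard error 0.08, 95% interval -0.13 to 0.23, adjusted p = 0.880 by edgeR's quasi-likelihood test), an interval of 0.914-fold to 1.17-fold. Without mutant replicates 1 and 2 it was -0.019, and with 1 sample left out it ran from 0.016 (without mutant replicate 1) to 0.092 (without mutant replicate 3). By wildtype FPKM *Caprin1* ranked 428 of the 17136 genes tested, and 97.5% of them were at or below its level.

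*Caprin1* output was dominated by 1 coding sequence. Of its 15 listed transcripts, 12 were above 0 in at least 1 sample, and ENSMUST00000111147 held 75.8% ± 0.462 of the gene's summed FPKM in wildtype and 76.6% ± 2.72 in mutant cochleae (SD, n = 3 each). Its 2121 coding bases were identical to those of ENSMUST00000028607, so these 2 transcripts differ outside the coding sequence. Protein-coding transcripts together held 92.1% ± 2.57 and 92.5% ± 2.66 of the *Caprin1* FPKM, and those with a retained intron 4.61% ± 1.69 and 5.52% ± 2.60. The remaining class, processed transcripts, held 4.99%, 2.18% and 2.62% for wildtype replicates 3, 4 and 5 and 2.05%, 1.92% and 2.02% in mutant replicates 1, 2 and 3. The groups were apart, narrowly except for the high value of wildtype replicate 3 (two-sided exact permutation p = 0.1, the smallest possible, not adjusted for the other shares). Of 30 class shares above 0 over the 10 members, 2 were lower and 1 was higher without overlap, and the other 2 of these were complementary shares of *G3bp2*, described below. How often class shares lie apart over all genes was not computed, so this count is a description only.

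*Caprin2*, the paralog of *Caprin1*, had 5.91, 6.83 and 5.01 FPKM in wildtype replicates 3, 4 and 5 and 6.39, 5.07 and 7.10 FPKM in mutant replicates 1, 2 and 3 (ENSMUSG00000030309, chr6:148842492-148896237, - strand). The groups overlapped, and the lowest and highest values were in wildtype replicate 5 and mutant replicate 3. With 202 to 310 counts it was the least certain member (log2 fold change -0.02, standard error 0.15, 95% interval -0.36 to 0.33, adjusted p = 0.980 by edgeR), and the sign turned to 0.17 without mutant replicates 1 and 2. *Caprin1* was 22.7 ± 2.59 times the level of *Caprin2* per length in wildtype and 22.8 ± 3.63 times in mutant cochleae (SD, n = 3 each). This ratio was 1 of 4 paralog ratios compared, and it gave a two-sided exact permutation p of 1, where the smallest p that 3 against 3 samples allow is 0.1. The most abundant *Caprin2* transcript, ENSMUST00000111569, held 46.9% ± 4.69 and 41.8% ± 8.66 of the gene. The coding form ENSMUST00000072324 held 18.9% ± 8.24 and 17.9% ± 10.2, and ENSMUST00000139914 and ENSMUST00000122909, both too thinly counted to be tested, held 10.8% and 10.9% in wildtype and 12.7% and 13.5% in mutant cochleae.

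*G3bp1* and *G3bp2*, whose proteins nucleate the granule, both missed the threshold. In mutant replicates 1 and 2 *G3bp1* lay above, and *G3bp2* below, every wildtype sample. *G3bp1* (ENSMUSG00000018583, chr11:55469685-55504838, + strand) had 25.01, 26.15 and 22.64 FPKM in wildtype replicates 3, 4 and 5 and 26.53, 27.17 and 24.51 FPKM in mutant replicates 1, 2 and 3. The 2 highest samples were mutant and the lowest was wildtype, with overlap (24.6 ± 1.79 and 26.1 ± 1.39 FPKM, log2 fold change 0.09, standard error 0.08, 95% interval -0.11 to 0.28, adjusted p = 0.803 by edgeR). *G3bp2* (ENSMUSG00000029405, chr5:92052146-92083719, - strand) had 54.15, 52.65 and 52.15 FPKM in wildtype and 47.54, 48.37 and 55.85 FPKM in mutant cochleae in the same order. Its lowest 2 samples were mutant replicates 1 and 2 and its highest was mutant replicate 3 (53.0 ± 1.04 and 50.6 ± 4.58 FPKM, log2 fold change -0.05, standard error 0.07, 95% interval -0.22 to 0.12, adjusted p = 0.872 by edgeR). Without replicates 1 and 2 both signs turned, to -0.037 for *G3bp1* and 0.045 for *G3bp2*. With 1 sample left out *G3bp1* ran from 0.034 (without wildtype replicate 5) to 0.15 (without mutant replicate 3), and *G3bp2* from -0.094 (without mutant replicate 3) to -0.015 (without mutant replicate 1).

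The *G3bp1* to *G3bp2* FPKM ratio took the values 0.462, 0.497 and 0.434 for wildtype replicates 3, 4 and 5 and 0.558, 0.562 and 0.439 in mutant replicates 1, 2 and 3. Mutant replicates 1 and 2 lay above all wildtype samples and replicate 3 lay within their range, so the groups overlapped (two-sided exact permutation p = 0.3, 0.667 adjusted over the 4 ratios). The 2 genes also differed in transcript makeup. *G3bp1* had 2 listed transcripts, of which ENSMUST00000018727 held 98.9% ± 0.840 in wildtype and 99.0% ± 0.815 in mutant cochleae. Among *G3bp2* coding transcripts that hold or skip the 99-base exon shown above, it was held by 14.2%, 16.9% and 11.2% of FPKM in wildtype. In mutant cochleae it was held by 9.41%, 9.001% and 16.5%, with overlap (14.1% ± 2.86 and 11.6% ± 4.24). The form that lacks the exon, ENSMUST00000113127, was the main transcript, with 84.6% ± 2.11 and 87.8% ± 4.13 of the gene, and ENSMUST00000169094, which holds it, had 12.3% ± 3.84 and 11.5% ± 4.28. The coding share of *G3bp2* was higher without overlap, at 99.6% ± 0.439 and 99.9% ± 0.0452, and its retained-intron share was lower, at 0.354% ± 0.385 and 0.0816% ± 0.0452, both by a narrow margin except for wildtype replicate 4 (exact permutation p = 0.1 each, not adjusted).

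*Usp10*, which encodes the deubiquitinase that binds G3BP proteins in place of CAPRIN1, had the largest gene-level estimate among the members in the edgeR fit of all 6 samples. This rank did not hold in every alternative run, as given in the closing section. It had 19.16, 18.48 and 17.84 FPKM in wildtype replicates 3, 4 and 5 and 20.15, 19.13 and 19.19 FPKM in mutant replicates 1, 2 and 3 (ENSMUSG00000031826, chr8:119910360-119957560, + strand). By FPKM all mutant samples lay near or above the highest wildtype sample, and mutant replicate 2 lay just below it, so the groups overlapped. In log2 CPM mutant replicate 3 (5.60) lay below wildtype replicates 4 (5.70) and 5 (5.65). The means were 18.5 ± 0.660 and 19.5 ± 0.572 FPKM (SD, n = 3 each), and the log2 fold change was 0.13 (standard error 0.09, 95% interval -0.08 to 0.34, adjusted p = 0.738 by edgeR). It was -0.038 without mutant replicates 1 and 2, 0.074 without replicate 1 alone and 0.21 without mutant replicate 3 (adjusted p = 0.250). The main transcript, ENSMUST00000108988, held 57.7% ± 3.13 and 57.2% ± 2.42 of the gene. The processed transcript ENSMUST00000143615 held 11.6% ± 4.14 and 8.42% ± 7.31. A second coding form, ENSMUST00000144458, ranged widely, from 0.85 to 2.82 FPKM in wildtype and from 1.79 to 4.05 FPKM in mutant cochleae (log2 fold change 0.63, standard error 0.50, adjusted p = 0.999 by edgeR).

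**Figure D2:**
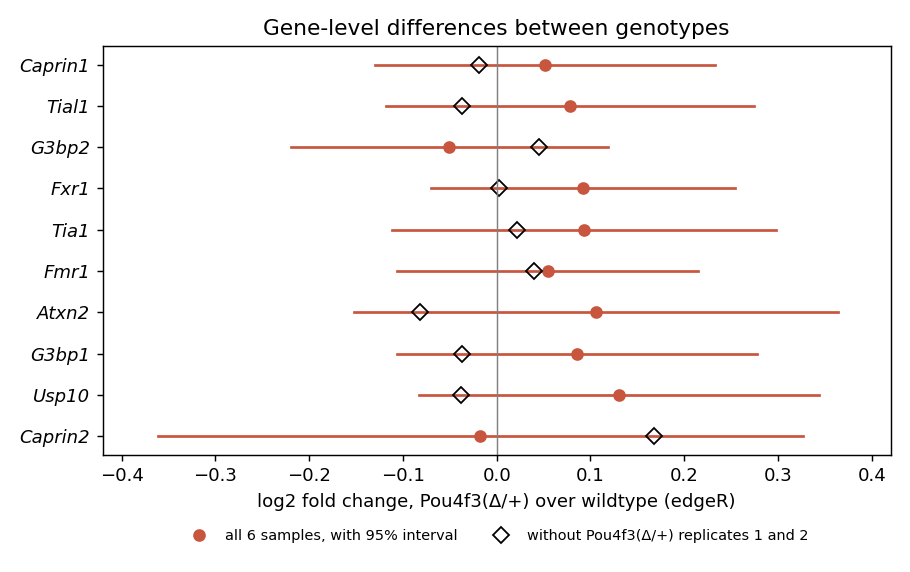
Gene-level log2 fold change of each member (*Pou4f3(Δ/+)* over wildtype) from edgeR, with red points and 95% intervals from all 6 samples and open diamonds for the fit without mutant replicates 1 and 2. Every red interval crosses 0, and 7 of the 10 diamonds lie on the other side of 0 from the red point.

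*Tia1* and *Tial1*, paralogs that encode RNA-binding proteins with an aggregation-prone end, were both abundant, and by FPKM *Tial1* lay above *Tia1* in every sample. *Tia1* (ENSMUSG00000071337, chr6:86404219-86433405, + strand) had 36.84, 43.44 and 36 FPKM in wildtype replicates 3, 4 and 5 and 46.56, 38.36 and 39.59 FPKM in mutant replicates 1, 2 and 3. Its groups overlapped, with the highest value in mutant replicate 1 (38.8 ± 4.07 and 41.5 ± 4.42 FPKM, log2 fold change 0.09, standard error 0.09, 95% interval -0.11 to 0.30, adjusted p = 0.799 by edgeR). *Tial1* (ENSMUSG00000030846, chr7:128439777-128461717, - strand) had 55.23, 56.44 and 47.30 FPKM in wildtype and 60.21, 56.74 and 51.06 FPKM in mutant cochleae in the same order. Mutant replicates 1 and 2 were highest and wildtype replicate 5 was lowest, with overlap (53.0 ± 4.96 and 56.0 ± 4.62 FPKM, log2 fold change 0.08, standard error 0.09, 95% interval -0.12 to 0.27, adjusted p = 0.819 by edgeR). Without mutant replicates 1 and 2 the values were 0.02 for *Tia1* and -0.037 for *Tial1*. With 1 sample left out *Tia1* ran from 0.032 (without wildtype replicate 3) to 0.17 (without wildtype replicate 4), and *Tial1* from 0.014 (without wildtype replicate 5) to 0.14 (without mutant replicate 3). The ratio of *Tia1* to *Tial1* FPKM was 0.733 ± 0.0569 in wildtype and 0.742 ± 0.0567 in mutant cochleae (two-sided exact permutation p = 0.5).

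The smaller part of the FPKM of either gene lay in protein-coding transcripts. Over all samples the coding share was 35.1% for *Tia1* and 38.6% for *Tial1*, and only 3.03% and 3.65% of the 14861 tested genes with a coding transcript were at or below these shares, whose median was 97.6%. For *Tia1* the transcripts with a retained intron held 49.4% ± 4.603 in wildtype and 48.6% ± 2.90 in mutant cochleae, and those marked for nonsense-mediated decay 15.1% ± 8.01 and 15.9% ± 2.43 (SD, n = 3 each). For *Tial1* the retained-intron share was 36.7% ± 1.74 and 36.9% ± 0.526, and the share marked for decay was 26.5% ± 4.999 and 22.6% ± 4.58. The groups overlapped for all 4 shares. The labels name both poly(A) selection and removal of ribosomal RNA for the libraries without saying which was used. The single most abundant *Tial1* transcript, ENSMUST00000141079, was one with a retained intron (21.6% ± 0.753 and 22.2% ± 0.687). Further *Tial1* forms were ENSMUST00000133089, marked for decay through the short exon shown above (19.6% ± 4.55 and 17.4% ± 5.09), the coding ENSMUST00000106226 (13.6% ± 1.97 and 13.4% ± 1.52) and ENSMUST00000205774, which retains an intron (10.3% ± 1.32 and 10.4% ± 1.45). In *Tia1* the most abundant form was the coding ENSMUST00000095753, with 24.1% ± 3.47 and 22.5% ± 4.48, and the coding ENSMUST00000095752 held 10.8% ± 3.32 and 12.0% ± 4.48. The *Tia1* forms ENSMUST00000136387 and ENSMUST00000203546, both with a retained intron, held 11% ± 0.801 and 9.26% ± 0.766 in wildtype and 11.9% ± 1.64 and 10.7% ± 1.90 in mutant cochleae. None of these 8 forms had an unadjusted p under 0.05 in edgeR's test of levels or of usage. The other members were mostly coding: 99.8% for *G3bp2*, 99.4% for *Fxr1*, 98.9% for *G3bp1*, 92.3% for *Caprin1*, 80.5% for *Fmr1*, 74.9% for *Caprin2*, 72.2% for *Usp10* and 69.7% for *Atxn2*. FPKM is relative to transcript length, and a short or partial transcript can take a large share from few fragments.

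**Figure D3:**
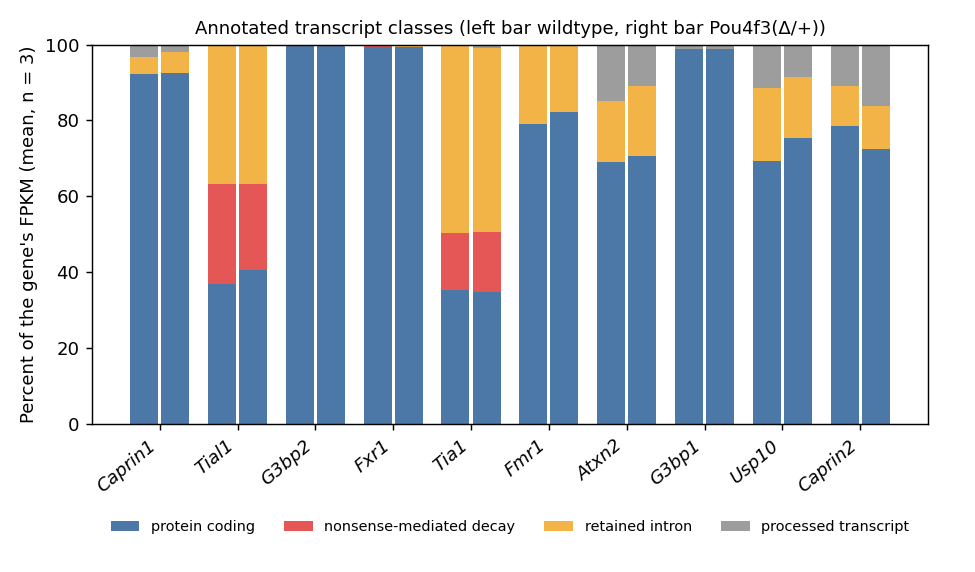
Stacked mean share (n = 3 per genotype) of each member's FPKM in protein-coding, nonsense-mediated decay, retained-intron and processed transcripts as GENCODE M21 classes them, with wildtype on the left and *Pou4f3(Δ/+)* on the right of each pair. *Tia1* and *Tial1* have the lowest coding shares (35.1% and 38.6% over all samples), and both genotypes show the same makeup to within a few percentage points for most genes.

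Of the 134 member transcripts, 19 were at 0 in all samples and 57 passed the filter on low counts. Of these 57, 0 had an adjusted p under 0.05 by edgeR's quasi-likelihood test, as for all 38347 transcripts tested (0%), and 2 had an unadjusted p under 0.05, against 4.14% of all transcripts. Both were *Tial1* transcripts, with opposite signs. The coding form ENSMUST00000033135 had 10.04, 8.44 and 11.36 FPKM in wildtype replicates 3, 4 and 5 and 14.25, 14.59 and 11.47 FPKM in mutant replicates 1, 2 and 3. All mutant samples lay above all wildtype samples, by a narrow margin for replicate 3 (log2 fold change 0.43, standard error 0.18, adjusted p = 0.999 by edgeR). The form ENSMUST00000123666, which holds the longer exon with the TAA stop shown above, had 3.09, 1.99 and 2.42 FPKM in wildtype and 1.17, 1.75 and 1.49 FPKM in mutant cochleae in the same order. All mutant samples lay below all wildtype samples (log2 fold change -0.76, standard error 0.29, adjusted p = 0.999 by edgeR).

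Among the 57 tested member transcripts, 3 were higher in every *Pou4f3(Δ/+)* sample than in any wildtype sample, against 5.39% of all transcripts, and 1 was lower, against 5.15%. Beside the 2 *Tial1* transcripts these were the *Fmr1* forms ENSMUST00000114657 and ENSMUST00000114653, described below. A test of usage, in which each transcript is set against the others of its gene (edgeR's diffSpliceDGE), was possible for 56 member transcripts. It called 0 of them at an adjusted p under 0.05, against 0.197% of the 30447 transcripts tested, and 0 had an unadjusted p under 0.05, against 1.54%. The share of the gene's FPKM was higher without overlap for 1 of the 56, against 4.6% of all, and lower without overlap for 3, against 4.51%. The higher one was ENSMUST00000161064 of *Atxn2*, and the lower ones were ENSMUST00000123666 of *Tial1*, ENSMUST00000197694 of *Fxr1* and ENSMUST00000134142 of *Tia1*.

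The inclusion of each printed segment was taken as the FPKM of transcripts that hold it, as a percentage of the FPKM of transcripts that hold or skip it. Only protein-coding transcripts were counted, joined for the long and short *Tial1* exons with a stop codon by those marked for nonsense-mediated decay. Transcripts with a retained intron and processed transcripts were left out. Of the 8 segments, 5 overlapped between the genotypes and 3 were lower in every *Pou4f3(Δ/+)* sample than in any wildtype sample, beside 4.51% of all transcript shares. The segments were chosen after the transcript levels were seen, so their inclusion is given as a description with no test. The 3 were the *Fxr1* exon, the *Atxn2* exon and the long *Tial1* exon, and each restates a difference in share already given for a transcript of the same gene. The long *Tial1* exon was held by 9.41%, 7.41% and 8.81% in wildtype replicates 3, 4 and 5 and by 3.74%, 4.99% and 6.21% in mutant replicates 1, 2 and 3. The annotation lists only 2 transcripts with these bases. The bases of the short *Tial1* exon, which the long exon also holds, were at 40.3% ± 7.54 and 33.6% ± 7.44. Among coding transcripts the 51-base *Tial1* extension was at 37.0% ± 1.87 and 33.0% ± 2.57, and the 33-base *Tia1* exon at 68.9% ± 5.78 and 64.9% ± 12.7. These levels depend on the unit. Computed on counts in place of FPKM, the extension was at 60.0% and 56.8% and the short *Tial1* exon at 21.2% and 16.3%, with overlap in both.

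**Figure D4:**
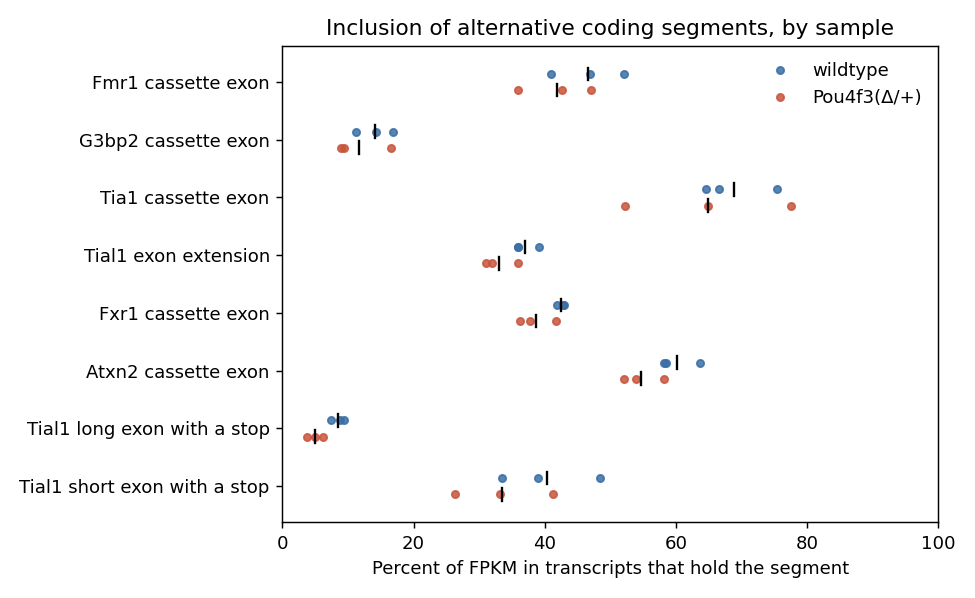
Percent of FPKM in transcripts that hold each of the 8 alternative segments, among coding transcripts that hold or skip it. For the long and short *Tial1* exons, transcripts marked for nonsense-mediated decay were counted too. Each point is 1 sample (wildtype in blue, *Pou4f3(Δ/+)* in red) and the black bars are the means. The genotypes are apart for the *Fxr1* exon, the *Atxn2* exon and the long *Tial1* exon and overlap for the other 5 segments.

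*Fmr1* and *Fxr1* encode members of the fragile X family of RNA-binding proteins. *Fmr1* (ENSMUSG00000000838, chrX:68678541-68717963, + strand) had 35.37, 35.79 and 34.64 FPKM in wildtype replicates 3, 4 and 5 and 37.64, 32.79 and 37.32 FPKM in mutant replicates 1, 2 and 3. The mutant samples lay on both sides of the narrow wildtype range (35.3 ± 0.582 and 35.9 ± 2.71 FPKM, log2 fold change 0.05, standard error 0.07, 95% interval -0.11 to 0.22, adjusted p = 0.849 by edgeR), and the value was 0.04 without replicates 1 and 2. It was 0.013 without mutant replicate 1 alone and 0.087 without mutant replicate 2 alone. The antisense gene *Fmr1os*, whose reads cannot be told apart from those of *Fmr1* where strand was not counted, was listed at 0.17 FPKM or less in every sample.

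*Fxr1* (ENSMUSG00000027680, chr3:34019943-34070322, + strand) had 49.13, 50.76 and 49.62 FPKM in wildtype and 54.92, 51.65 and 51.38 FPKM in mutant cochleae in the same order. It was the 1 member whose FPKM did not overlap, and its TMM-scaled log2 CPM did overlap (49.8 ± 0.836 and 52.7 ± 1.97 FPKM, log2 fold change 0.09, standard error 0.07, 95% interval -0.07 to 0.25, adjusted p = 0.752 by edgeR). Without mutant replicates 1 and 2 the log2 fold change was 0.0022, and it was 0.058 without mutant replicate 1 alone and 0.14 without mutant replicate 3 alone. The *Fmr1* to *Fxr1* ratio was 0.708 ± 0.0111 in wildtype and 0.682 ± 0.0458 in mutant cochleae (two-sided exact permutation p = 0.5).

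The *Fmr1* forms divided on the 63-base exon. ENSMUST00000114657, which lacks it, was the main transcript, with 13.43, 15.05 and 14.69 FPKM in wildtype and 15.77, 15.52 and 18.17 FPKM in mutant cochleae. Every mutant sample lay above every wildtype sample (log2 fold change 0.19, standard error 0.09, adjusted p = 0.999 by edgeR). ENSMUST00000114653, which holds the exon, was also higher without overlap, at 5.40 ± 1.14 and 6.81 ± 0.375 FPKM. ENSMUST00000088546, which holds it too, was at 7.62 ± 2.52 and 5.55 ± 2.00 FPKM, with overlap, and had the smallest usage p of all member transcripts (0.0846, adjusted p = 1.00 by edgeR's diffSpliceDGE). Summed over coding transcripts, the exon was held by 52.0%, 41.0% and 46.9% in wildtype and by 47.1%, 42.6% and 35.9% in mutant cochleae, with overlap. The short form ENSMUST00000127993, with a retained intron, held 15.5% ± 2.78 and 13.1% ± 2.56 of the gene.

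In *Fxr1* the 92-base exon was held by 42.9%, 42.8% and 41.8% of FPKM in wildtype replicates 3, 4 and 5 and by 41.8%, 37.8% and 36.3% in mutant replicates 1, 2 and 3. Mutant replicate 1 lay just below the lowest wildtype sample (41.77% against 41.81%), and the lowest mutant value was in replicate 3, which did not stand apart on the first principal component. The main form with the exon, ENSMUST00000197694, held 41.2% ± 0.188 of the gene in wildtype and 36.7% ± 2.28 in mutant cochleae, and its usage p was 0.581 by edgeR's diffSpliceDGE. ENSMUST00000200392, which lacks the exon, held 32.2% ± 4.64 and 35% ± 5.18, and ENSMUST00000198051, which lacks it too, held 22.6% ± 1.84 and 22% ± 2.15.

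*Atxn2*, which encodes a partner of poly(A)-binding protein, had 30.89, 37.55 and 30.12 FPKM in wildtype replicates 3, 4 and 5 and 38.43, 33.32 and 29.12 FPKM in mutant replicates 1, 2 and 3 (ENSMUSG00000042605, chr5:121711337-121816493, + strand). Both the highest and the lowest sample were mutant, and the groups overlapped (32.9 ± 4.09 and 33.6 ± 4.66 FPKM, log2 fold change 0.11, standard error 0.11, 95% interval -0.15 to 0.36, adjusted p = 0.815 by edgeR). The edgeR estimate rested on mutant replicate 1, since it was -0.0062 without that sample and -0.082 without replicates 1 and 2. The 169-base exon was held by 63.7%, 58.3% and 58.6% of FPKM in wildtype and by 53.9%, 58.2% and 52.1% in mutant cochleae, where replicate 2 lay just below the lowest wildtype sample. Computed on counts in place of FPKM, the groups overlapped (59.1% to 65.6% and 52.3% to 59.2%). ENSMUST00000161064, which lacks the exon, held 21.8% ± 0.703 of the gene in wildtype and 27.9% ± 3.55 in mutant cochleae without overlap (log2 fold change of its level 0.38, standard error 0.16, adjusted p = 0.999 by edgeR), and its usage p was 0.324. The most abundant form, ENSMUST00000162327, which holds the exon, had 28.7% ± 0.641 and 26.3% ± 4.51, and ENSMUST00000051950, which also holds it, had 12.7% ± 3.34 and 12.3% ± 1.25. The processed transcript ENSMUST00000160813 held 14.7% ± 5.47 and 11% ± 2.41.

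Ordered by wildtype FPKM, the members ran *Caprin1*, *Tial1*, *G3bp2*, *Fxr1*, *Tia1*, *Fmr1*, *Atxn2*, *G3bp1*, *Usp10* and *Caprin2*. *Caprin1* was apart from *Tial1* in both genotypes, and so were *Fxr1* from *Tia1*, *Tia1* from *Fmr1*, *Atxn2* from *G3bp1*, *G3bp1* from *Usp10* and *Usp10* from *Caprin2*. *Tial1* overlapped with *G3bp2*, and *Fmr1* with *Atxn2*, in both genotypes, while *G3bp2* was above *Fxr1* in every wildtype sample but not in the mutant samples. *Usp10* was above 70.7% of tested genes and *Caprin2* above 40.2%.

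The members did not deviate together in every sample. Mutant replicate 1 was above the wildtype mean for 9 of 10 members, with a median log2 CPM difference of 0.13, replicate 2 for 7 (median 0.06) and replicate 3 for 5 (median -0.0088). Wildtype replicate 4 was itself above the wildtype mean for 8 members (median 0.07). The largest positive deviation was *Atxn2* in mutant replicate 1 (0.31) and the largest negative one was *Caprin2* in mutant replicate 2 (-0.33).

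**Figure D5:**
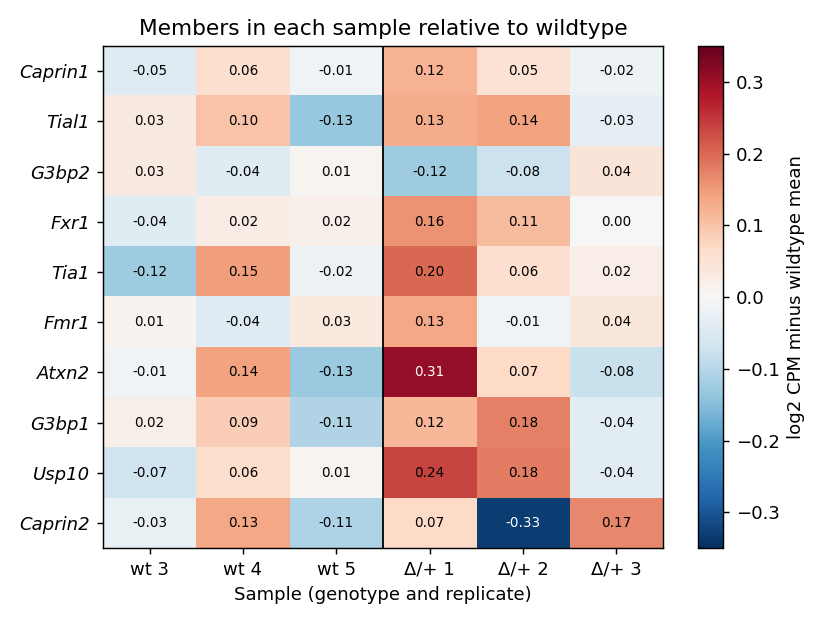
Log2 CPM of each member minus its wildtype mean, for 3 wildtype samples (left of the line) and 3 *Pou4f3(Δ/+)* samples (right), with red above and blue below that mean. Mutant replicate 1 is above 0 for 9 of 10 members, *G3bp2* is the exception, and mutant replicate 3 is divided 5 to 5.

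The likeness of other genes to *Caprin1* is given as a description over 6 samples that share libraries and depth. Of 17135 genes, the 5 with the highest Pearson correlation with *Caprin1* in log2 CPM were *Ccdc186* (r = 0.996), *Thbd* (0.988), *Lactb* (0.983), *Zfp182* (0.982) and *Fxyd7* (0.980). Among the members the correlation was 0.939 for *Tia1*, 0.937 for *Usp10*, 0.905 for *Atxn2*, 0.904 for *Fxr1*, 0.709 for *Tial1*, 0.701 for *G3bp1*, 0.367 for *Fmr1* and 0.018 for *Caprin2*. *G3bp2* ran opposite to *Caprin1* (r = -0.960), and 99.8% of genes had a correlation at or above that value. When the 2 samples farthest from the *Caprin1* median were left out, the value for *G3bp2* was -0.924, that for *Tia1* 0.839 and that for *Usp10* 0.808. It was 0.962 for *Atxn2*, 0.905 for *Tial1*, 0.890 for *G3bp1* and 0.639 for *Fxr1*. The value turned to -0.970 for *Fmr1* and to -0.290 for *Caprin2*.

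Other genes of the same biology likewise showed 0 calls in edgeR. The counts of 3 lists are read beside 49.4% of all genes above 0 and 7.64% with an unadjusted p under 0.05. Of 34 tested genes for further stress granule proteins and partners, 22 were above 0 and 12 below, with a median log2 fold change of 0.04. The 1 with an unadjusted p under 0.05 was *Ybx1*, which encodes an abundant mRNA-packaging protein. It had 258.72, 248.07 and 241.58 FPKM in wildtype and 209.71, 227.78 and 223.38 FPKM in mutant cochleae, without overlap (log2 fold change -0.19, standard error 0.08, adjusted p = 0.643 by edgeR). Of 23 genes of translation initiation and the integrated stress response, the signalling route that blocks translation by phosphorylation of eIF2α, 18 were above 0 and 5 below (median 0.05). The 1 with p under 0.05 was *Eif2ak2*, the eIF2α kinase that senses double-stranded RNA. It had 22.98, 20.95 and 32.54 FPKM in wildtype and 20.78, 13.13 and 19.85 FPKM in mutant cochleae, without overlap by a narrow margin (log2 fold change -0.58, standard error 0.20, adjusted p = 0.643 by edgeR). Of 18 genes of P-bodies, the granules of mRNA decay, 16 were above 0 and 2 below (median 0.07). Their mean log2 CPM was 6.247 to 6.361 in wildtype and 6.363 to 6.478 in mutant cochleae, apart by a narrow margin, whereas the means of the other 2 lists overlapped, as did the summed FPKM of all 3. The 1 with p under 0.05 was *Edc3*, an enhancer of decapping. It had 6.30, 5.80 and 5.98 FPKM in wildtype and 7.70, 7.29 and 7.24 FPKM in mutant cochleae, without overlap (log2 fold change 0.31, standard error 0.09, adjusted p = 0.643 by edgeR). None of the 3 passed the test over all genes, and 1 gene per list is no more than the share of all genes at that p.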

How the data were processed

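Total RNA was extracted from cochleae, 3 samples per genotype, and libraries were made after poly(A) selection or ribosomal RNA removal (the labels name both). Per the labels and the file headers, the authors deposited for each transcript an expected count (estimated, not normalized) and an FPKM value. The submitters' processing notes name DESeq2 and the build mm8. The aligner and counting program are not given in the sources used here, nor is strand. Transcript identifiers matched GENCODE M21 (GRCm38) for 99.5% of transcripts, with equal genomic span for 97.2%, and for all 134 member transcripts. Coordinates, classes and sequences are from that annotation. The authors' counts were summed over a symbol, rounded and tested with edgeR 4.0.16 in R 4.3.3 (filterByExpr, minimum count 10 and total 15; TMM; quasi-likelihood; Benjamini-Hochberg adjustment over all features). Transcripts were tested likewise, and usage with diffSpliceDGE. Standard errors are the log2 fold change over the square root of F, and 95% intervals use the moderated degrees of freedom. Log2 CPM used a prior count of 2. Scripts were tested on simulated data. Paralog ratios and shares of transcript classes were compared with two-sided exact permutation tests (SciPy 1.17.1). Alternatives were DESeq2 1.42.0, its size factors in edgeR, other filters, limma-trend (limma 3.58.1) on log2(FPKM + 0.1, 0.5 or 1), each replicate left out in turn, and *Pou4f3(Δ/+)* replicates 1 and 2 left out together.

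The members and gene lists were chosen with earlier results of these data known, and the segments after transcript levels were seen. One segment and its transcript, which the rule below selects, are not reported here. All 10 members were named. Of their transcripts, those named were the most abundant, any with at least 10% of the gene's FPKM in either genotype, any with an unadjusted p under 0.05 and the tested ones without overlap. From the lists the genes with an unadjusted p under 0.05 were named. Depth was 14295069 to 17696784 summed counts per sample.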

Additional observations from a re-analysis of the deposited data

How the results depend on the processing

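The count of members called at an adjusted p under 0.05 was 0 in every alternative run, for genes, transcripts and usage, although the fit without *Pou4f3(Δ/+)* replicates 1 and 2, with 1 mutant sample assumed to vary like the wildtype samples, says nothing of stability. Over all features, genes called numbered 0 with edgeR, 62 with DESeq2, 9 without a filter on low counts, 1 with limma-trend at a pseudocount of 0.1, 6 without *Pou4f3(Δ/+)* replicates 1 and 2, and 0 to 193 with 1 replicate left out, where 193 came without *Pou4f3(Δ/+)* replicate 3 and 3 without wildtype replicate 4. Transcripts called numbered 0, 133 with DESeq2, 1 without a filter, 2 with limma-trend at 0.1 and 0 to 3 with 1 replicate left out. Usage calls numbered 60, and 79 to 99 with 1 replicate left out. Of 140 recomputed fold changes of members, 13 changed sign, in 7 of 10 members. Without *Pou4f3(Δ/+)* replicates 1 and 2 the log2 fold change was -0.019 for *Caprin1*, 0.17 for *Caprin2*, -0.037 for *G3bp1*, 0.045 for *G3bp2*, -0.038 for *Usp10*, -0.037 for *Tial1* and -0.082 for *Atxn2*. *Caprin2* was at 0.061, 0.057 and 0.053 with limma-trend at pseudocounts of 0.1, 0.5 and 1, at 0.057 without wildtype replicate 4 and at 0.12 without *Pou4f3(Δ/+)* replicate 2, and *Atxn2* ran from -0.0062 (without *Pou4f3(Δ/+)* replicate 1) to 0.20 (without replicate 3). With limma-trend at 0.1 *Atxn2* was at 0.031, *Fmr1* at 0.024 and *Usp10* at 0.076, below *Tia1* (0.098). *Usp10* was below *Atxn2* without wildtype replicate 4 (0.17 and 0.18) and without *Pou4f3(Δ/+)* replicate 2 (0.11 and 0.13). With 1 replicate left out, the log2 difference of the *Caprin1* to *Caprin2* ratio ran from -0.11 to 0.12 and that of *Tia1* to *Tial1* from -0.048 to 0.083. The difference ran from 0.094 to 0.27 for *G3bp1* to *G3bp2* and from -0.10 to -0.0043 for *Fmr1* to *Fxr1*. The *Tia1* exon differed by -10.3 to 2.39 percentage points, above 0 without *Pou4f3(Δ/+)* replicate 1. The cause of these shifts was not tested.

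No paired analysis was possible because the genotypes share only 1 replicate number. Few counts lie behind *Caprin2* and the minor transcripts, and the part of depth in their spread was not tested.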
